A study of Rattus norvegicus with 3 samples.

Results

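In the vestibular nuclei of rats, RNA levels at 7 days were set against those at 1 day after removal of the labyrinth, the balance organ of the inner ear, on the same side. The comparison rests on 2 of the 3 arrays of the series, those labelled 1day and 7days, and each point in time had 1 array. Per the labels, both carried tissue of male Sprague-Dawley rats, adult and weighing 200 to 250 g, operated in the left ear, and the nuclei of the operated side were taken from 3 rats per group because 1 nucleus gave too little RNA. Each array therefore appears to carry pooled RNA, and no value below has an error from animals, dissections or labellings. The third array was of rats with a sham operation in 1 label, called normal in another. It took no part in the comparison other than in the choice among several probes of a gene, and its values are given beside those of the 2 days. No genetic change is named for any group, and the sources used here do not say which side was taken from the sham rats. Of 8899 genes that could be named, 6142 were measured, meaning that their brightest probe had a signal well above background, without saturation, at day 1 and at day 7 alike.

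The vestibular nuclei are brainstem cell groups that receive the axons of the labyrinth and drive the reflexes of gaze and posture. Loss of 1 labyrinth silences the resting discharge of neurons on that side, and balance then recovers over days as the discharge returns, a process called vestibular compensation. Known elements of it include inhibition by glycine and GABA between the nuclei of both sides, glutamate receptors, the firing properties of the neurons, stress hormones and a reaction of microglia and astrocytes around the cut axons.

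A level below is the log2 of the processed spot intensity minus that of the array's own 75th percentile, so 0 is the 75th percentile of an array. A difference is the day 7 level minus the day 1 level of 1 probe, on the log2 scale, and a level of one gene is not comparable with that of another. Genes at a difference of at least 1, which is 2-fold, were counted as higher or lower at day 7. The lowest level well above background was -5.59 at day 1 and -5.55 at day 7, and levels close to these lie near the floor. The number of arrays limits the precision, and no test was possible with 1 array on each side.

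The labelled tissue was checked against markers. Slc17a6, the vesicular glutamate transporter of brainstem excitatory neurons, was at 3.01 in sham, 3.03 at day 1 and 3.19 at day 7. Slc32a1, the vesicular transporter of glycine and GABA, was at 3.41, 3.50 and 3.40 in the same order. Both are therefore bright and nearly equal on the 3 arrays. Other markers of the list were not equal. Slc6a5, the other glycinergic marker, was at 0.45 in sham, 0.33 at day 1 and -4.81 at day 7. The motor neuron marker Slc18a3 differed by -3.47 between the days, and the ependymal marker Foxj1 by 1.84. Slc17a7, the glutamate transporter typical of cerebellar and cortical neurons, was not well above background on either array after surgery. The same held for Gabra6, a subunit of cerebellar granule cells. Hoxa2, a gene of hindbrain position, was at 0.57 in sham and 0.58 at day 1 and was not well above background at day 7, where it was at least 69.9-fold lower. The other hindbrain Hox genes of the marker list had no named probe.

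The day 7 array had 403 of the 6142 genes at least 2-fold higher than the day 1 array, and 327 at least 2-fold lower. These are 6.56% and 5.32% of the genes measured, and the other 5412 genes lay within 2-fold. Each count of higher or lower list members below is to be read beside these 2 shares. Of all 6142 genes, 3295 lay above 0, and each count of list members above 0 is to be read beside that. The median size of a difference was 0.33, and the median difference of all genes was 0.04. Of the genes past 2-fold, 55.2% were higher, and in the authors' values without scaling between arrays 65.9% were, with a median of 0.15 over all genes. Past 4-fold there were 78 higher and 92 lower genes, and past 16-fold 4 higher and 26 lower. The brighter 3071 genes held 73 higher and 113 lower ones, and the dimmer 3071 held 330 higher and 214 lower. A further 324 genes were detected at day 7 and not at day 1, and 331 were detected at day 1 and not at day 7, which gives a bound in place of a difference.

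**Figure D1:**
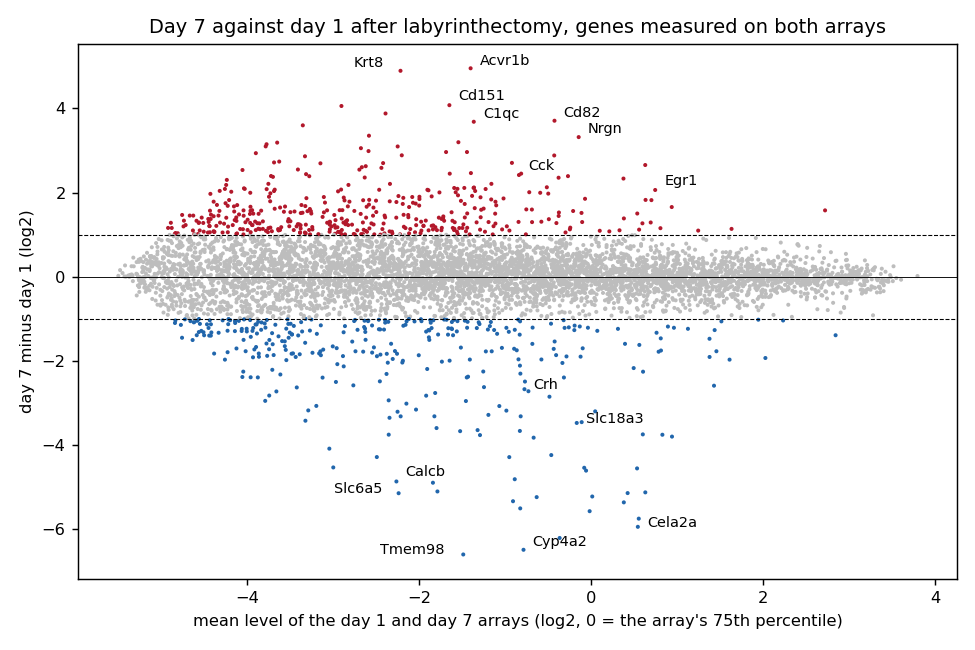
Each point is 1 of the 6142 genes measured on both arrays, with the mean of its day 1 and day 7 levels on the x axis (log2) and the day 7 minus day 1 difference on the y axis (log2); dashed lines mark 2-fold. The 403 higher genes (red) lie mostly at low levels, and the 327 lower genes (blue) reach differences as far as -6.60 (Tmem98), beyond the highest of 4.95 (Acvr1b).

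The sham array entered the choice of a gene's probe, but not the difference by which these genes were counted. It lay closer to day 1 for 270 of the 403 higher genes and closer to day 7 for 133. For the 327 lower genes it lay closer to day 1 in 155 and closer to day 7 in 172. The median level of the higher genes was -3.60 at day 1, -2.02 at day 7 and -3.17 in the sham array. That of the lower genes was -1.40, -3.33 and -2.38 in the same order. For both groups the sham median lay between those of the 2 days, a place that the choice of genes by a gap between the days favours. Among the 5412 genes within 2-fold, sham lay closer to day 1 in 57.7%.

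Different probes of a gene gave the only check on a difference that the arrays hold beyond repeated spots. For 1082 genes with at least 2 measured probes, the differences of the 2 brightest probes were apart by a median of 0.37 and, at the 90th percentile, by 1.32. Across the 1082 genes the differences of the 2 probes had a correlation of only 0.22. Of 68 such genes past 2-fold by the brighter probe, 44 had a second probe of the same sign and 17 a second probe past 2-fold the same way. In 5 genes, Hcn3 among them, probes were past 2-fold in opposite directions. Repeated spots were closer together: for 137 genes on probes with 10 spots, the median error of a difference from the spots alone was 0.04. Among these 137, 10 were higher (7.30%) and 14 lower (10.2%). The error that the scanner software assigns to a difference had a median of 0.21 over all measured genes. A difference of a single probe near 1 is therefore larger than the error of its spots, and is of a size by which probes of 1 gene often disagree.

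In 8 of the 1082 genes with at least 2 measured probes, all of these probes were at least 2-fold higher at day 7. Of the 8 genes, 3 belong to motile cilia or flagella, and the share of such genes among the 1082 was not counted. Drc12, a subunit of the dynein regulatory complex of cilia, was at -3.66 in sham, -3.15 at day 1 and -1.38 at day 7, a difference of 1.78, with 2.21 by its second probe. Lrrc46, known from the sperm flagellum, differed by 3.05 and 2.19, and Ttll1, an enzyme that adds glutamate chains to ciliary tubulin, by 1.06 and 1.77. The bicarbonate transporter Slc4a10, the complement subunit C1qa, the neurotrophin Bdnf, the small GTPase Rras2 and Tmem109 were the others. C1qa gave 1.39 and 1.47, Bdnf 1.13 and 1.25, Slc4a10 1.58 and 2.15, Rras2 1.50 and 1.17, and Tmem109 1.30 and 3.85. The probes of C1qa, Bdnf and Rras2 lay close together, and those of Tmem109 far apart.

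All measured probes were at least 2-fold lower in 7 of the same 1082 genes. Rab3b, a GTPase of synaptic vesicles, differed by -1.97 and -1.74, and Anxa5, a calcium-dependent membrane-binding protein, by -1.89 and -2.84. Gpt2, a mitochondrial alanine aminotransferase, gave -1.37 and -1.50, and Mturn, a neural progenitor differentiation regulator, -1.75 and -1.33. Vwa7 gave -1.39 and -1.78, and Dffa, an inhibitor of the DNase of apoptosis, -5.24 and -1.43.

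Complement is a cascade of plasma proteins that tags cells and synapses for removal, and in the brain C1q and C3 come largely from microglia and astrocytes. Of 19 measured complement genes, 7 were higher and 1 was lower, beside 6.56% and 5.32% of all genes, with a median difference of 0.78 beside 0.04 over all genes. The median level of the list was -2.84 at day 1, -1.63 at day 7 and -2.63 in the sham array. C3, the central component of the cascade, was at -1.09 in sham, -3.94 at day 1 and -1.31 at day 7, so its difference of 2.63 is between a low day 1 value and a day 7 value near sham. C1qc was at -2.84, -3.21 and 0.47, a difference of 3.68 that its second probe gave as 0.52. C1qa, by contrast, was given alike by both probes, at 0.12 in sham, -0.31 at day 1 and 1.07 at day 7.

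The remaining higher complement genes cover the lectin route, a receptor, an inhibitor and C4. Masp2, the protease that starts the lectin route, was at -2.85 in sham, -3.50 at day 1 and -1.43 at day 7 (2.07). Serping1, which inhibits C1, was at -2.76, -3.67 and -2.0 (1.67), but at 0.06 by its second probe. C5ar1, the receptor of the fragment C5a, was at -1.73, -2.44 and -1.0 (1.43). These 3 genes were lowest at day 1, and C4a was at -3.22, -3.05 and -1.78 (1.26), highest at day 7. The lower member was C4bpb, a chain of the C4b-binding inhibitor, at -3.86 in sham, -0.43 at day 1 and -3.20 at day 7 (-2.76), so its day 1 value stood above both others.

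Fc receptors bind antibody and pass the signal to phagocytes. Of 4 measured, 2 were at least 2-fold higher, beside 6.56% of all genes, and all 4 lay above 0. Their median was 1.42, and 0.82 without a filter on dim probes. Fcgr2b, the inhibitory receptor, was at -3.65 in sham, -5.34 at day 1, near the floor, and -3.16 at day 7 (2.18). Fcgr3a, an activating one, was at -1.86, -3.96 and -1.93 (2.03). Fcgr2a was at -2.91, -4.53 and -3.71 (0.82). All 3 had their lowest level at day 1, and the neonatal receptor Fcgrt differed by 0.22. The levels of the 4 genes, summed on a linear scale in units of the 75th percentile, were 0.67 in sham, 0.25 at day 1 and 0.59 at day 7.

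Microglia and macrophage markers lay on both sides of 0. Of 17 measured, 4 were higher and 2 were lower, beside 6.56% and 5.32% of all genes. Of the same 17, 12 lay above 0, with a median of 0.24. Tlr2, a receptor for bacterial lipoproteins, was at -0.57 in sham, -2.37 at day 1 and -0.33 at day 7 (2.04). Lgals3, a lectin of phagocytes, was at -4.67, -5.21 and -3.92 (1.29), and Csf1r, the growth factor receptor that microglia need to survive, was at -1.39, -2.32 and -1.16 (1.16). Gpnmb, a glycoprotein of lipid-laden phagocytes, was at -2.51, -2.74 and -1.58 (1.16). Against these, Spp1, which encodes osteopontin, was at 0.19, 0.11 and -1.48 on 10 spots (-1.60), and Cybb, a subunit of the phagocyte oxidase, at -2.90, -2.96 and -4.08 (-1.12). Aif1, the usual stain for microglia, was at -0.05, -1.13 and -0.20 (0.94), within 2-fold. Cd68, of phagocyte lysosomes, was not well above background at day 1 and at least 2.22-fold higher at day 7.

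Summed over the 17 microglia genes, the linear level was 15.9 at day 1, 18.8 at day 7 and 19.3 in the sham array. In bulk tissue, fewer cells of a type and less RNA per cell cannot be told apart. Markers of blood leukocytes were examined beside these lists. Of 7 measured leukocyte genes none was higher and 1 was lower: Nkg7, of cytotoxic lymphocytes, was at -1.37 in sham, 0.23 at day 1 and -1.89 at day 7 (-2.11). Of 17 members with a named probe, a further 5 were detected at day 7 and not at day 1, beside 324 of all 8899 named genes. Among them were the neutrophil genes S100a8, at least 4.70-fold higher, and S100a9, at least 3.39-fold higher. Cd8a, of cytotoxic T cells, was detected at day 1 and not at day 7, at least 2.80-fold lower. The summed level of the 7 measured genes was 2.01 at day 1, 1.18 at day 7 and 1.07 in the sham array, and the median of the list changed sign under 1 of 6 scaling and background settings. The part of blood cells in the immune differences was not tested.

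**Figure D2:**
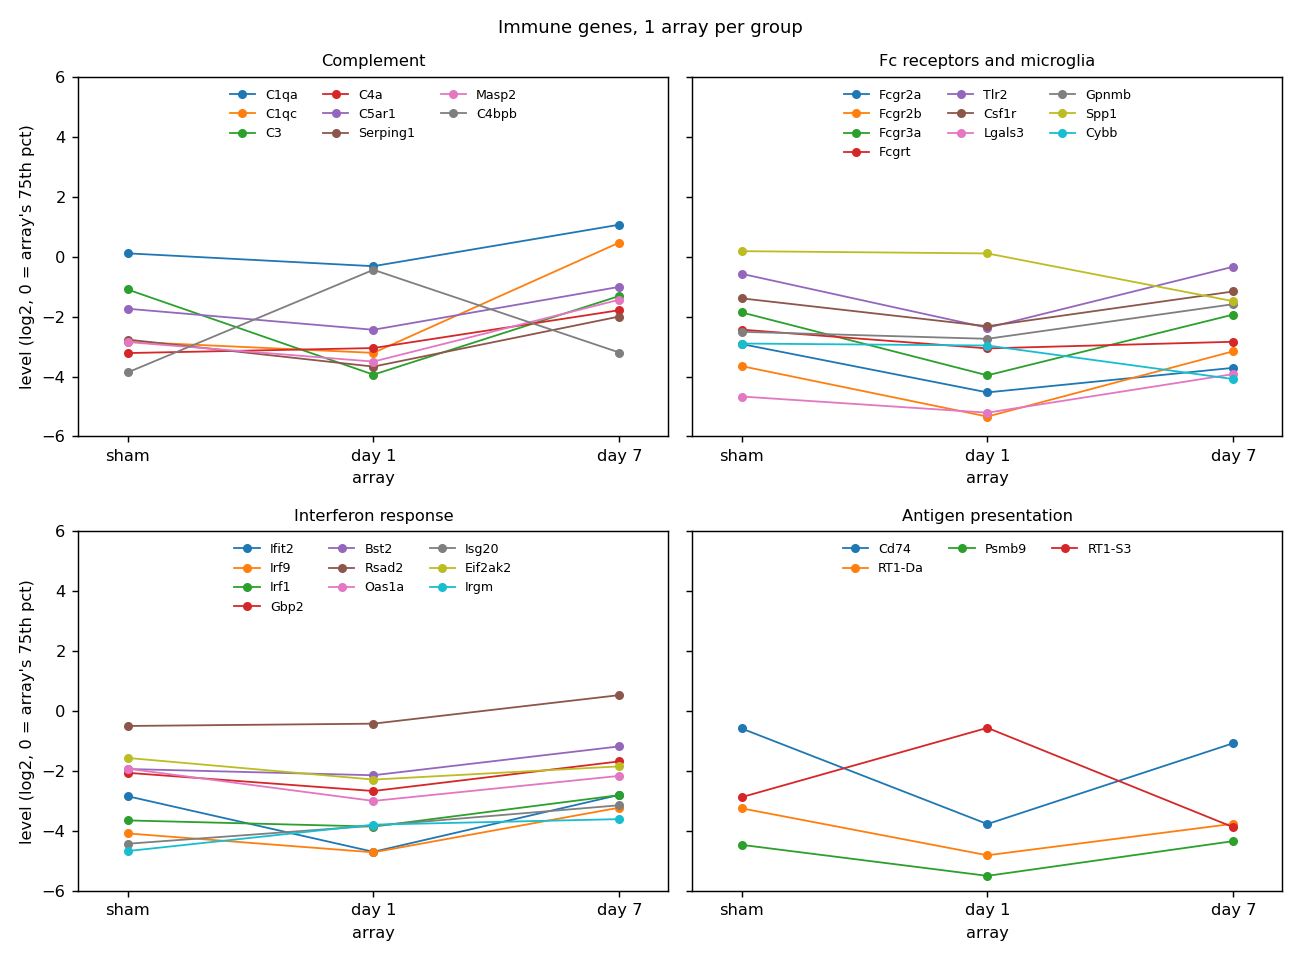
Levels of immune genes on the sham, day 1 and day 7 arrays (log2, 0 is the array's 75th percentile), 1 line per gene and 1 array per group, without error bars because there were no replicates. Most lines have their lowest point at day 1, as for C3 (-1.09, -3.94 and -1.31) and Cd74 (-0.58, -3.77 and -1.07), while C4bpb and RT1-S3 have their highest point there.

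Interferons are cytokines that switch on antiviral genes through transcription factors, Stat2 and Irf9 among them, which bind the interferon-stimulated response element. Promoters of the measured members were searched for the core of that element, the letters GAAA, 2 free bases and GAAA again, on both strands of the 250 bases before the gene's start in a RefSeq table on the GRCr8 assembly. Of 10 measured members with a promoter in the table, 7 held it (70.0%), beside 902 of all 27457 promoters (3.29%) and 155 of the 4979 promoters of measured genes (3.11%). The 7 windows are shown since they are the sequence these genes have in common, with the match in capitals and up to 10 bases on each side, on the strand of the gene. In Oas1a and Bst2 there are 2 overlapping matches, and in Gbp2 and Rsad2 the match is on the opposite strand, so that the runs read TTTC.
Isg20: taatgaaccaGAAACTGAAActaaaacggc
Gbp2: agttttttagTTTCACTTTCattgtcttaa
Eif2ak2: agtccgccggGAAAACGAAAcagaga
Rsad2: ctggttcaacTTTCATTTTCagaaaacaga
Irgm: tcaaggaataGAAACTGAAAccgactctct
Oas1a: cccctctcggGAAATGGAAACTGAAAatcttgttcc
Bst2: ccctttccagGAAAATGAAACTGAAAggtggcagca

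On GRCr8 these windows lie at chr1:142239957-142239986 on the plus strand (Isg20), chr2:234005686-234005715 on the plus strand (Gbp2), chr6:21941128-21941153 on the plus strand (Eif2ak2) and chr6:48788248-48788277 on the minus strand (Rsad2). The others lie at chr10:33742593-33742622 on the minus strand (Irgm), chr12:41330415-41330450 on the plus strand (Oas1a) and chr16:18255073-18255108 on the minus strand (Bst2). All are upstream of the annotated start, with the nearest match ending at position -7 (Eif2ak2) and the farthest beginning at -147 (Rsad2), counted back from the start. A match of letters is a description and does not show that a factor bound there.

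All 13 measured interferon-response genes were above 0 at day 7 against day 1, while 3295 of all 6142 genes were. Their median was 0.84, and 0.45 over 24 genes without a filter on dim probes or 0.20 over 3 with only brighter probes. Those past 2-fold were 3 in number. Ifit2, which blocks translation of viral RNA, was at -2.84 in sham, -4.70 at day 1 and -2.80 at day 7 (1.90). Irf9, the DNA-binding part of the interferon-activated complex, was at -4.08, -4.72 and -3.22 (1.49), and Irf1, a transcription factor of the interferon gamma response, at -3.65, -3.86 and -2.81 (1.05). In Ifit2 the day 7 level was close to sham, and in Irf9 and Irf1 it was above it.

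The 7 genes with the sequences shown above were all within 2-fold. Gbp2, a GTPase that attacks vacuoles of pathogens, was at -2.06 in sham, -2.67 at day 1 and -1.68 at day 7 (0.99). Bst2, which tethers virus particles to the cell, was at -1.93, -2.14 and -1.18 (0.96, and also 0.96 by its second probe), and Rsad2, an antiviral radical enzyme, at -0.50, -0.42 and 0.53 (0.95). Oas1a, an RNA sensor that activates RNase L, was at -1.92, -3.00 and -2.16 (0.84). Isg20, an exonuclease, differed by 0.68, the RNA-activated kinase Eif2ak2 by 0.44 and the immunity GTPase Irgm by 0.18. Each of the 7 was above 0, and for Gbp2, Bst2, Rsad2, Isg20 and Irgm the day 7 level was the highest of the 3 arrays. Of the 37 genes of the list, 24 had a named probe, and members near background on either array are missing from these counts. Cxcl10, a chemokine induced by interferon, was detected at day 7 and not at day 1, at least 1.30-fold higher, and Ifngr1, a chain of the interferon gamma receptor, was at least 24.0-fold higher. Stat2 was detected at day 1 and not at day 7, at least 1.05-fold lower. Of the interferon genes themselves, Ifnb1 was measured and differed by -0.03, and the kinase Jak2, which signals for interferon gamma, by 0.86.

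Antigen presentation genes load peptides onto molecules of the major histocompatibility complex, called RT1 in the rat. Of 18 measured, 3 were higher, 1 was lower and 15 lay above 0, with a median of 0.41. Cd74, the invariant chain of class II molecules, was at -0.58 in sham, -3.77 at day 1 and -1.07 at day 7 (2.70). Psmb9, a subunit of the immunoproteasome, was at -4.47, -5.50 and -4.34 (1.16), and the class II chain RT1-Da at -3.25, -4.81 and -3.76 (1.05). All 3 were lowest at day 1. RT1-S3, a class I gene of the nonclassical kind, was the exception, at -2.87, -0.56 and -3.88 (-3.32). RT1 genes are a family of similar sequences, which the probes may not separate.

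Cytokine and chemokine genes gave 5 higher and no lower member of 26 measured, beside 6.56% and 5.32% of all genes. Their median was 0.31. Of 46 members with a named probe, 6 more were detected at day 7 and not at day 1, beside 324 of all 8899 named genes. Ccl3, a chemokine of microglia and macrophages, was at -5.09 in sham, -4.83 at day 1 and -3.42 at day 7 (1.41), highest at day 7. Tgfbr1, a receptor of transforming growth factor beta, was at -0.91, -2.02 and -0.86 (1.16), with other probes between -0.52 and 1.13. Icam1, an adhesion molecule that leukocytes bind, was at -2.11, -4.42 and -3.29 on 10 spots (1.13), and the interleukin 6 receptor Il6r at -3.43, -3.84 and -2.73 (1.11).

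Astrocyte genes as a group were near 0. Of 15 markers 1 was higher and 1 lower, and the median of -0.11 changed sign under 1 of 6 scaling and background settings. Aqp4, the water channel of astrocyte endfeet, was at -1.63 in sham, -1.58 at day 1 and -0.38 at day 7 on 10 spots (1.20). S100b, a calcium-binding protein, was at -4.11, -0.91 and -2.21 on 10 spots (-1.30), high at day 1. Gfap, the astrocyte filament that stands for gliosis, was at -0.35, -0.45 and -0.61 (-0.17). The glutamate transporter Slc1a2 differed by 0.58 and glutamine synthetase, Glul, by -0.68.

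Of 18 reactive astrocyte markers 3 were higher and 1 was lower, with a median of 0.09. Vim, an intermediate filament, was at -3.01 in sham, -3.24 at day 1 and -1.45 at day 7 (1.79). Cp, which encodes the ferroxidase ceruloplasmin, was at -4.60, -5.36 and -3.90 (1.45), and Cd44, the hyaluronan receptor, at -0.78, -0.00 and 1.12 (1.12). S100a10 was at 0.01, 0.30 and -0.92 (-1.22). Vim and Gfap, both filaments of astrocytes, thus lay apart on these arrays.

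**Figure D3:**
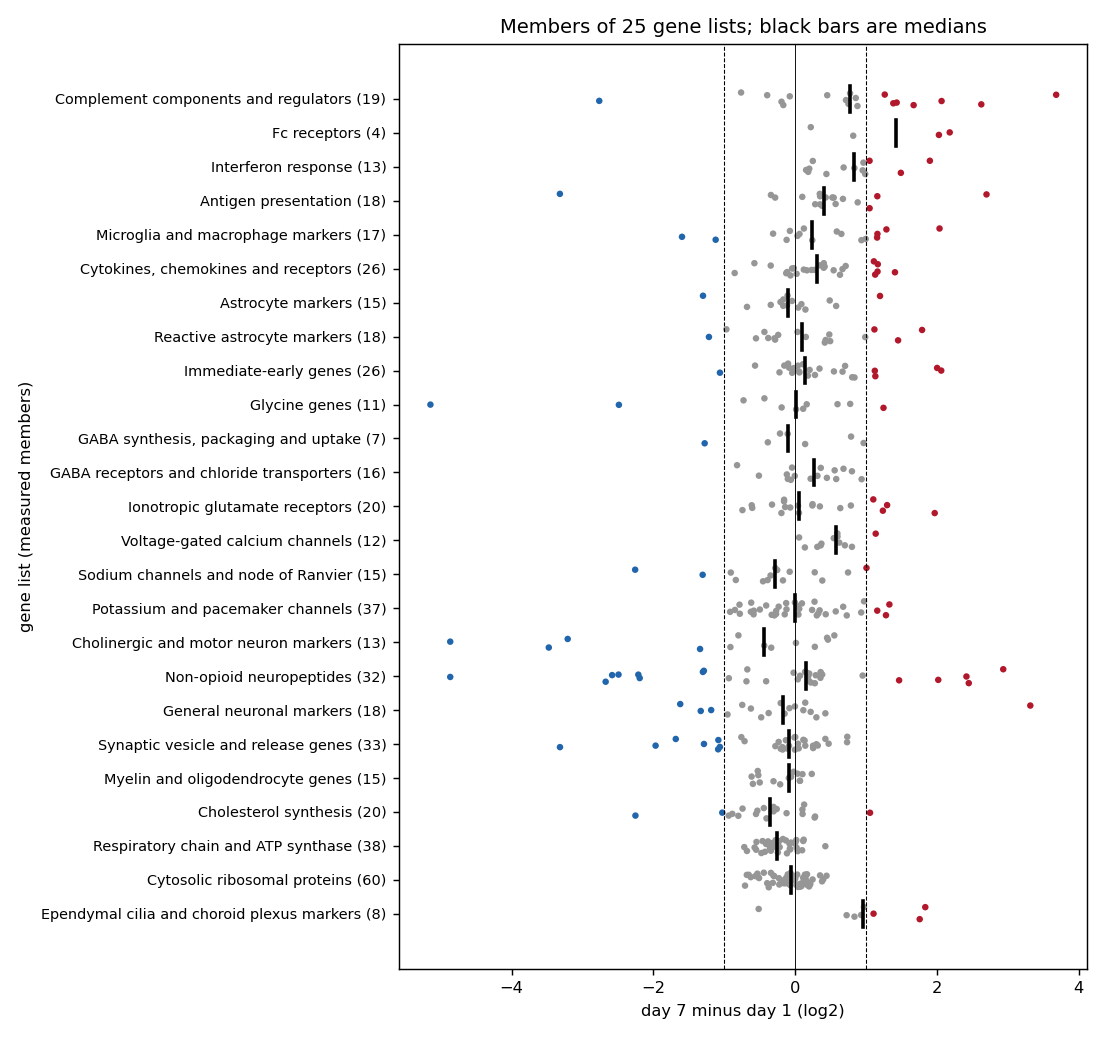
Day 7 minus day 1 difference (log2) of the measured members of 25 gene lists, 1 point per gene, with the number of measured members in brackets, dashed lines at 2-fold and a black bar at each list's median. Complement (median 0.78), Fc receptor (1.42), interferon-response (0.84) and ependymal and choroid plexus genes (0.95) have medians to the right of 0, while the 60 ribosomal and 38 respiratory chain genes all stay inside 2-fold.

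Myelin genes stayed within 2-fold in all 15 measured members, with a median of -0.09 that changed sign under 1 of 6 scaling and background settings. Mbp, myelin basic protein, was at 2.75 in sham, 2.06 at day 1 and 1.46 at day 7 (-0.60, and -0.49 by another probe). The largest difference was that of Aspa, the enzyme that splits N-acetylaspartate, at -0.61. The transcription factor Olig1 differed by -0.52 and Mal, a lipid raft protein of myelin, by -0.53. Of 4 markers of oligodendrocyte precursors none was past 2-fold.

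Immediate-early genes are switched on by neuronal firing without new protein synthesis. Of 26 measured, 4 were higher and 1 was lower. The median was 0.15, and -0.02 with only brighter probes. Egr1, a zinc finger transcription factor on 10 spots, was at 1.47 in sham, -0.29 at day 1 and 1.77 at day 7 (2.06). Fos, the most used marker of recent firing, was at -1.16, -2.40 and -1.28 (1.12), and Atf3, a stress and nerve injury factor, at -1.80, -2.77 and -0.76 (2.00). In all 3 the day 1 value was the lowest. Bdnf was at -3.90, -4.21 and -3.08 (1.13, and 1.25 by its second probe).

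Several other activity genes were within 2-fold or lower. Nr4a1, an orphan nuclear receptor, was at -1.85 in sham, -4.00 at day 1 and -3.16 at day 7 (0.84), still under sham. Btg2, an antiproliferative factor, was at 0.70, -1.50 and -1.46 (0.04), low on both days. Plk2, a kinase that weakens active synapses, was at -2.50, -1.62 and -2.68 (-1.06), highest at day 1. Homer1, a scaffold whose short form is induced by activity, differed by 0.67. Arc, which takes AMPA receptors from the synapse, was not well above background at day 1, at least 2.15-fold higher at day 7, and at -5.31 in sham. Egr2 was at least 16.1-fold higher at day 7 than at day 1 by the same kind of bound, and Fosl1 at least 4.49-fold lower.

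The cyclic AMP response element, TGACGTCA, which firing activates through the factor Creb, was searched in the same promoters. It lay in 6 of 31 immediate-early promoters (19.4%), beside 1.70% of all promoters, and in 3 of the 19 that belong to measured members (15.8%), beside 2.81% of the promoters of measured genes. These 3 are shown because the genes behaved differently from each other: the day 7 minus day 1 difference was 0.71 for Ier2, 0.04 for Btg2 and -1.06 for Plk2.
Ier2: ggcgtttcagTGACGTCActcttactct
Btg2: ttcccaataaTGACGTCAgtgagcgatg
Plk2: gccctcttcgTGACGTCAcgaggccccg

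The windows, on the strand of each gene with the element in capitals, lie on GRCr8 at chr19:40399297-40399324 on the plus strand (Ier2), chr13:48087874-48087901 on the minus strand (Btg2) and chr2:43702460-43702487 on the plus strand (Plk2). The letters TGANTCA, an AP-1 site that Fos and Jun bind, were in none of the 19 promoters of measured members, on either strand. They were in 5.10% of the promoters of measured genes and in 6.36% of all promoters, so their absence from 19 says little.

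Glycine is the main fast inhibitory transmitter of the brainstem with GABA. Its transporter Slc6a5, which marks glycinergic neurons, was at 0.45 in sham, 0.33 at day 1 and -4.81 at day 7, a difference of -5.14 on 1 spot. The receptor subunit Glra1 was at -2.17, -1.22 and -3.70 (-2.49). Against these, gephyrin, the scaffold of inhibitory synapses encoded by Gphn, was at -2.61, -3.48 and -2.24 (1.25), and the fetal receptor subunit Glra2 at 0.11, 0.19 and 0.97 (0.78). The glial glycine transporter Slc6a9 differed by 0.60. So 1 of 11 measured glycine genes was higher and 2 were lower, and the median of 0.01 changed sign under 1 of 6 scaling and background settings. Slc32a1, which fills vesicles of the same glycinergic neurons, differed by -0.10, so the marker transporters of these neurons did not share a difference.

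GABA genes were mostly within 2-fold. Of 7 genes of synthesis, packaging and uptake 1 was lower, the transporter Slc6a11 at -2.68 in sham, -1.25 at day 1 and -2.52 at day 7 (-1.28), and the median of -0.10 changed sign under 2 of 6 scaling and background settings. Gad2, a GABA-synthesizing enzyme, was at -1.76, -0.60 and -0.46 (0.14), above sham on both days. The brightest probe of Gad1, the other such enzyme, was not measured on both arrays. None of 16 receptor and chloride transporter genes was past 2-fold, and their median was 0.27. The subunit Gabra3 differed by -0.82, the rho subunit Gabrr3 by 0.80 and the GABA-B subunit Gabbr1 by 0.36.

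Chloride transporters set whether GABA inhibits. The exporter Slc12a5 was at 2.88 in sham, 2.92 at day 1 and 2.87 at day 7 (-0.04). The importer Slc12a2 was at 0.46, -0.30 and -0.81 on 10 spots (-0.51, and -0.53 by another probe), and the kinase Wnk1, which controls both, differed by 0.68. The exporter was level across the arrays, and the importer was lower at day 7 than at day 1 by both of its probes, within 2-fold.

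**Figure D4:**
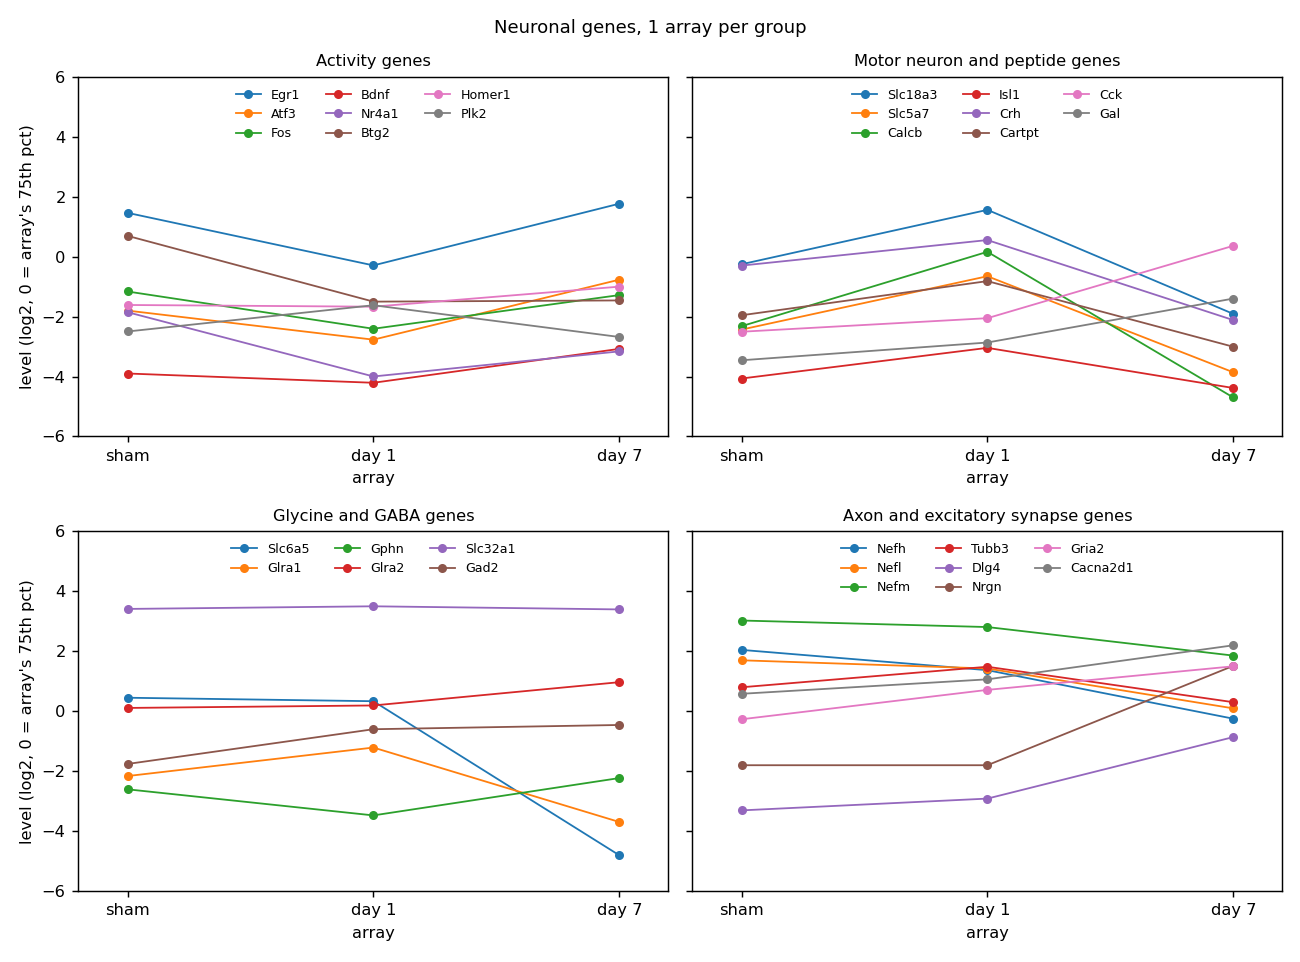
Levels of neuronal genes on the sham, day 1 and day 7 arrays (log2, 0 is the array's 75th percentile), 1 line per gene and 1 array per group, without error bars because there were no replicates. Egr1 and Fos dip at day 1, motor neuron genes such as Slc18a3 (-0.25, 1.57 and -1.91) peak there, Slc6a5 drops to -4.81 at day 7, and the 3 neurofilament genes are lowest at day 7.

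Ionotropic glutamate receptors and their partners gave 4 higher genes and no lower one among 20, at a median of 0.05, and 3 of the 4 are auxiliary proteins of AMPA receptors. Cacng8 was at -5.83 in sham, -5.41 at day 1 and -3.44 at day 7 (1.97), Cacng3 at -0.29, -1.34 and -0.04 (1.30), and the cornichon Cnih2 at -3.85, -3.40 and -2.16 (1.24). The kainate receptor subunit Grik2 was at -0.30, -0.22 and 0.88 (1.10). Gria2, the AMPA receptor subunit that blocks calcium entry, was at -0.27, 0.71 and 1.50 on 10 spots (0.79, and 1.40 by another probe), lowest in sham and highest at day 7. Grin1, the obligatory NMDA receptor subunit, differed by -0.19 on its probe.

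Of 7 metabotropic receptor genes 1 was lower, Grm6, at -5.21 in sham, -3.24 at day 1 and -4.35 at day 7 (-1.11), with a list median of -0.45. None of 13 genes of glutamate transport and metabolism was past 2-fold. Slc38a2, which carries glutamine into neurons, was at 2.18, 2.09 and 1.35 (-0.74, and -1.50 by another probe), and Gls2, a glutaminase, differed by -0.54.

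Postsynaptic scaffold genes had 2 higher and no lower member of 25, close to the 6.56% of all genes that were higher. Their median was 0.27, and -0.09 with only brighter probes. Dlg4, which encodes the main scaffold of excitatory synapses, was at -3.31 in sham, -2.92 at day 1 and -0.87 at day 7 on 10 spots (2.05). Baiap2, an actin-binding partner of the scaffold, was at 0.83, 0.69 and 1.79 (1.10, and 0.57 by another probe). Nrgn, a calmodulin-binding protein of spines, was at -1.81, -1.81 and 1.51 (3.32). In Dlg4, Baiap2 and Nrgn the day 7 array stood apart from the other two.

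The voltage-gated calcium channel genes lay above 0 in all 12 measured members, beside 3295 of all 6142 genes. Their median was 0.57, and 1 was past 2-fold. That gene, Cacna2d1, an auxiliary subunit that brings channels to the terminal and binds gabapentin, was at 0.58 in sham, 1.06 at day 1 and 2.20 at day 7 (1.14). The accessory subunits Cacnb2, Cacnb3 and Cacna2d3 differed by 0.80, 0.70 and 0.62. Of 15 sodium channel and node of Ranvier genes, 1 was higher and 2 were lower, with a median of -0.28. The adhesion protein Cntn1 was at 0.17, 1.73 and -0.53 (-2.26), and Scn3a, a channel typical of immature neurons, at -3.28, -3.37 and -2.36 (1.01). Scn4b differed by -0.91, and by -0.52 on another probe.

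Potassium and pacemaker channels set the resting discharge of vestibular neurons. Among 37 measured were 3 higher genes, close to the 6.56% of all genes, and no lower one, beside 5.32%. Their median of -0.00 changed sign under 2 of 6 scaling and background settings. Kcnip3, a calcium sensor that modulates A-type channels, was at -2.34 in sham, -2.28 at day 1 and -0.95 at day 7 (1.33), and Kcnj4, an inward rectifier, at -6.15, -5.53 and -4.25 (1.28). Hcn3, a pacemaker channel, was at -1.59, -2.08 and -0.92 (1.16), but its second probe gave -1.48, so its direction depends on the probe. Kcnip1, of the same family as Kcnip3, differed by 0.97.

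Of 13 measured markers of motor neurons and cholinergic cells, none was higher and 4 were lower at day 7, with a median of -0.44 and 5 above 0. Slc18a3, the vesicular acetylcholine transporter, was at -0.25 in sham, 1.57 at day 1 and -1.91 at day 7 (-3.47). Slc5a7, which takes choline into the terminal, was at -2.43, -0.65 and -3.86 (-3.21), and Isl1, a transcription factor of motor neurons, at -4.07, -3.04 and -4.38 (-1.34). Calcb, a calcitonin gene-related peptide of motor and sensory neurons, was at -2.32, 0.17 and -4.70 (-4.87). All 4 were highest at day 1 and lay below sham at day 7. This order was not particular to motor neuron genes. The olfactory receptor gene Or2t48 was at -1.85 in sham, 0.31 at day 1 and -3.36 at day 7, and Or2n1l at -1.56, 0.50 and -3.14. The probe of Calcb is also among those at least 16-fold lower, described below, most of which had this order. Summed over the 13 genes, the linear level was 12.5 at day 1, 5.90 at day 7 and 7.52 in the sham array. Chat, the enzyme that makes acetylcholine, had no named probe. This summed level moved with the day, and its part in the other neuronal differences was not tested.

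Nicotinic receptor subunits, the targets of acetylcholine, had 2 higher and 2 lower members of 8. Their median was 0.10, and -0.53 over 2 genes with only brighter probes. Chrna7, the subunit of the fast calcium-permeable receptor, was at -1.77 in sham, 0.44 at day 1 and -0.83 at day 7 on 10 spots (-1.27). The muscle-type subunits Chrne and Chrnd differed in opposite directions, by -1.53 and 1.12, and Chrna5 was at -4.99 at day 1 and -3.32 at day 7 (1.67) and not well above background in sham.

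Neuropeptide genes lay far out on both sides, with 5 higher and 8 lower among 32, beside 6.56% and 5.32% of all genes, and a median of 0.15. Cck, cholecystokinin, was at -2.50 in sham, -2.05 at day 1 and 0.37 at day 7 on 10 spots (2.42), and Gal, galanin, at -3.46, -2.86 and -1.40 on 10 spots (1.47). Tac3, neurokinin B, was at -1.56, -2.04 and 0.41 (2.45). These 3 were highest at day 7. Pmch, melanin-concentrating hormone, was at -2.89, -5.37 and -2.43 (2.94) and Npw at -3.98, -5.20 and -3.18 (2.02), both lowest at day 1.

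The 8 lower peptide genes, Calcb among them, were all highest at day 1. Crh, the stress peptide corticotropin-releasing hormone, was at -0.29 in sham, 0.56 at day 1 and -2.11 at day 7 on 10 spots (-2.67). Hcrt, the arousal peptide orexin, was at -0.72, 0.47 and -2.02 on 10 spots (-2.49), and Cartpt, a peptide of feeding and reward circuits, at -1.95, -0.81 and -3.00 on 10 spots (-2.19). These 3 genes shared that order, with day 7 under sham. Nppa, the atrial natriuretic peptide, differed by -2.21, and Uts2, the motor neuron peptide urotensin, was at -3.94, -1.48 and -4.06 (-2.58). Npvf and Npb differed by -1.30 and -1.29. Of 7 opioid genes 1 was lower, the delta receptor Oprd1, at -2.29, -0.95 and -1.99 (-1.04), while the peptide gene Penk was at 1.17, 1.26 and 0.42 (-0.83). The opioid median of -0.01 changed sign under 3 of 6 scaling and background settings.

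Genes of monoamine neurons had 1 higher and 2 lower members of 13, with a median of 0.07. Tph2, which makes serotonin in the raphe, was at -1.09 in sham, -3.17 at day 1 and -0.21 at day 7 (2.96). Th, which makes dopamine and noradrenaline, was at -2.94, -1.40 and -3.17 on 10 spots (-1.77), and Dbh, which turns dopamine into noradrenaline, at -4.82, -4.20 and -5.34 (-1.14). The noradrenaline pair Th and Dbh was thus highest at day 1, and Tph2 lowest there. Of 16 receptors of monoamines and histamine 1 was higher and 3 were lower, with a median of -0.29. Drd3, a dopamine receptor, was at -4.50, -1.72 and -4.22 (-2.50), Htr1d, a serotonin receptor, at -2.05, -1.35 and -3.39 (-2.04), and Hrh4, a histamine receptor, at -4.07, -2.56 and -4.54 (-1.98). The higher one was the adrenergic receptor Adra2c (1.09).

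Neurofilaments are structural proteins of large axons. Nefh, the heavy neurofilament, was at 2.05 in sham, 1.37 at day 1 and -0.25 at day 7 (-1.62), and Nefl, the light one, at 1.70, 1.42 and 0.09 (-1.33). The medium neurofilament Nefm was at 3.03, 2.81 and 1.86 (-0.95). All 3 were highest in sham and lowest at day 7. The neuronal tubulin Tubb3 was at 0.80, 1.48 and 0.30 (-1.18), highest at day 1. With these, 3 of 18 general neuronal markers were lower and 1, Nrgn, was higher, with a median of -0.18. Summed over the 18, the linear level was 59.9 at day 1, 48.9 at day 7 and 62.6 in the sham array.

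Genes of synaptic vesicle release had no higher and 7 lower members of 33, beside 6.56% and 5.32% of all genes. Their median of -0.09 changed sign under 1 of 6 scaling and background settings. Sv2c, a vesicle protein, was at -4.27 in sham, -0.17 at day 1 and -3.48 at day 7 (-3.32), and Rab3b at -2.46, -0.43 and -2.40. Both were highest at day 1. Rab3a, the main vesicle GTPase of neurons, was at 2.33, 2.04 and 0.98 (-1.06), lowest at day 7. Vamp1, the vesicle SNARE of the brainstem, differed by -1.29 and, by another probe, by 0.00. The calcium sensors Syt7 and Syt4 differed by -1.09 and -1.08.

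Of 17 calcium-binding protein genes, Cabp1 was the higher one, at -2.62 in sham, -1.95 at day 1 and -0.09 at day 7 (1.86), and S100b the lower one, with a median of 0.15. Axon growth genes had 1 higher and 2 lower among 27, with a median of 0.06 that changed sign under 2 of 12 alternatives. Gap43, the growth-cone protein, was at 2.70, 2.77 and 3.17 (0.40). Apart from Atf3 and Tubb3, given above, the guidance cue Slit3 was past 2-fold (-1.03), and its receptor Robo1 differed by 0.94.

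Growth factor genes and their receptors had 5 higher and 7 lower members of 44, beside 6.56% and 5.32% of all genes, with a median of -0.12. Besides Bdnf, the family of GDNF was represented on both sides. Gfra2, the receptor of neurturin, was at 1.99 in sham, 1.93 at day 1 and 3.51 at day 7 (1.58), while its ligand Nrtn was at -0.98, 0.59 and -3.18 (-3.76). Pspn, persephin, was at -3.17, -3.44 and -1.73 (1.71). Gfra3, the receptor of artemin, differed by -1.25 and, by another probe, by 0.32. The ligand Nrtn and the receptor Gfra2 thus differed in opposite directions.

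Vegfa, the vascular growth factor, was at 2.62 at day 1 and -2.60 at day 7 (-5.22), but its second probe gave -0.88. Fgfr1, a fibroblast growth factor receptor, was at 2.06 in sham, 2.59 at day 1 and 0.62 at day 7 (-1.97). Fgf14, an intracellular partner of sodium channels, was at -2.77, -2.83 and -4.71 (-1.88). Fgf18 and the binding protein Igfbp3 differed by -1.06 and -1.04, and Igfbp5 by 1.45. Egfr was at 1.27 by 1 probe and -0.31 by another.

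Genes of the perineuronal net and of the extracellular matrix showed no common direction. Of 7 net genes, 2 link proteins were lower: Hapln3 was at -5.23 in sham, -1.61 at day 1 and -5.04 at day 7 (-3.42), and Hapln2, of the nodes of Ranvier, at 0.71, 1.57 and 0.35 (-1.21, and 0.23 by another probe). Among 20 collagen, laminin, integrin and protease genes, 2 were higher, the membrane protease Mmp14 (1.70) and decorin, Dcn (1.01), and 2 lower, fibronectin, Fn1 (-1.09), and the inhibitor Timp3 (-1.03). The medians of -0.03 and -0.01 changed sign under 2 and 3 of 6 scaling and background settings.

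Stress genes were led by a few members. Hmox1, heme oxygenase, was at 0.47 in sham, 1.67 at day 1 and -0.11 at day 7 on 10 spots (-1.78), highest at day 1. Catalase, Cat, was at -3.37, -3.14 and 0.05 (3.20), and Gclc, which starts glutathione synthesis, differed by 1.02. These were the 2 higher and 1 lower of 30 heat shock and oxidative stress genes, with a median of -0.16. Hspa1a, the inducible heat shock protein, was at -1.87, -4.42 and -3.49 (0.93, and 0.89 by another probe).

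Glucocorticoid-responsive genes had 1 higher and 3 lower members of 20, and the median of -0.11 changed sign under 1 of 6 scaling and background settings. Fam107a was at -2.18 in sham, -0.25 at day 1 and -2.62 at day 7 (-2.38). Pdk4, which spares glucose, was at -2.80, -3.28 and -5.25 (-1.97), and the cell cycle inhibitor Cdkn1a at 3.13, 2.75 and 1.71 on 10 spots (-1.04). Angptl4, a lipase inhibitor, was at -1.90, -2.58 and -0.57 (2.01). Fam107a was highest at day 1, and Pdk4 and Cdkn1a were highest in sham.

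Cholesterol synthesis genes had 1 higher and 2 lower members of 20, with a median of -0.35 and 6 members above 0. Fdft1, squalene synthase, was at -1.17 in sham, -0.13 at day 1 and -2.38 at day 7 (-2.25), and Hsd17b7 at -2.71, -3.26 and -4.29 (-1.03). Idi1, an isomerase of the pathway, differed by -0.94 and, by its second probe, by -1.11. Srebf2, the transcription factor that drives these enzymes, was at -3.75, -4.96 and -3.91 (1.06). The letters TCACNCCAC, a sterol regulatory element, were found in none of 19 promoters of the list within the window and in 0.976% of all promoters. At so low a share, their absence from 19 promoters says little about the list.

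The genes of the respiratory chain and ATP synthase formed a narrow group in which none of 38 was past 2-fold and 8 lay above 0, with a median of -0.26. The farthest were Ndufs4 of complex I (-0.72), the cytochrome oxidase subunits Cox5a (-0.68) and Cox7b (-0.57), and Uqcrc1 of complex III (-0.55). Their summed linear level was 135.5 at day 1, 115.8 at day 7 and 149.7 in the sham array. The 60 cytosolic ribosomal protein genes likewise had no member past 2-fold, and their median of -0.06 changed sign under 1 of 6 scaling and background settings. Both lists hold bright probes, for which differences were smaller: the median size of a difference was 0.24 in the brighter 3071 genes and 0.44 in the dimmer 3071.

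The ventricle lining and the choroid plexus lie beside the vestibular nuclei at the fourth ventricle. Of 8 measured markers, 3 were higher, none lower and 7 above 0, and the median was 0.95. Foxj1, the transcription factor of motile cilia, was at -2.02 in sham, -2.08 at day 1 and -0.25 at day 7 (1.84). Sostdc1, a secreted inhibitor made in choroid plexus, was at -3.06, -2.95 and -1.19 (1.76). Ttr, transthyretin, the most abundant transcript of choroid plexus, was at -1.14, -2.35 and -1.24 (1.11), so it was at its sham level at day 7, and Folr1, the folate receptor, at -3.17, -2.42 and -1.45 (0.97). The cilia genes Rsph1 and Tekt1 were at least 4.61-fold and 1.91-fold higher, while Kcnj13, a potassium channel of choroid plexus, was at least 2.05-fold lower.

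Summed over the 8, the linear level was 1.34 at day 1, 2.78 at day 7 and 1.44 in the sham array. Drc12 and Ttll1, given above with agreeing probes, are further genes of cilia, and Ubxn11 (3.88) was among the highest genes of all. The summed level moved with the day, and its part in the other differences was not tested.

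Genes of cerebellar and hindbrain position were above 0 in all 6 measured members, with 2 higher. Their median was 0.86, and 0.08 over 15 genes without a filter on dim probes. Maf, a transcription factor, was at -3.57 in sham, -4.14 at day 1 and -2.62 at day 7 (1.51), and Barhl1, of cerebellar granule cell precursors, at -2.14, -2.10 and -1.03 (1.08). Lhx1 and Irx2 differed by 0.98 and 0.73. Of 15 members with a named probe, another 3, Hoxa2 among them, were detected at day 1 and not at day 7, beside 331 of all 8899 named genes. Of 8 genes of Schwann cells and peripheral nerve, 1 was higher and 1 lower. Of 16 endothelial, pericyte and blood genes 1 was higher, the smooth muscle gene Tagln (1.01). The medians of these lists, -0.04 and -0.05, changed sign under 3 and 1 of 6 scaling and background settings.

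The largest single differences were on genes that do not belong to 1 common list. Acvr1b, an activin receptor, was at -3.93 in sham, -3.88 at day 1 and 1.07 at day 7 (4.95), and Krt8, a keratin of simple epithelia, at -5.63, -4.67 and 0.23 (4.89). The tetraspanins Cd151 and Cd82 were at -3.69 and -2.28 at day 1 and differed by 4.08 and 3.71. Cd82 was at 1.72 in sham, near its day 7 level of 1.43, so its low value is that of day 1. Pak2, a kinase of the cytoskeleton, differed by 4.06, Spry2, an inhibitor of growth factor signalling, by 3.1 and the cyclin D-binding factor Dmtf1 by 2.99. Ankra2 differed by 2.96 and, by its second probe, by 0.18.

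At the other end, Tmem98, a membrane protein, was at -4.59 in sham, 1.81 at day 1 and -4.79 at day 7 (-6.60), so day 1 stood apart. Cyp4a2, a fatty acid hydroxylase, was at 0.70, 2.46 and -4.03 (-6.49), and the pancreatic elastase Cela2a at 2.39, 3.51 and -2.43 (-5.94). In both, sham lay between the 2 days. The co-receptor Tgfbr3 was at 1.76, 3.06 and -2.30 (-5.36), Mta1, a subunit of a chromatin-remodelling complex, at 0.03, 1.76 and -3.58 (-5.33), and the lens crystallin Cryba2 at 1.54, 3.19 and -1.93 (-5.12). The carriers Slc25a34 and Slc13a2 differed by -5.50 and -5.57, and Slc13a2 by 0.80 on its second probe. Arsj differed by -5.14 and Xk by -5.10. Of the 15 lowest genes only Slc13a2, Dffa and Vegfa had a second measured probe, and none of the 3 gave a difference of that size by it.

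This order over the arrays was common among the most extreme probes, named or not. Of all probes, 62 were at least 16-fold lower at day 7 than at day 1, and 35 of them had no name here. Their median level was 1.53 at day 1, -3.46 at day 7 and -0.01 in the sham array. Sham lay under day 1 and over day 7 in 58 of the 62, and closer to day 1 in 54. A place between the 2 days is favoured by the choice of probes with a wide gap between them, so the 58 carry little information. The 62 probes were spread over the array, with 0 to 7 in each of 16 blocks of equal size. The 18 probes at least 16-fold higher were at a median of -4.18 in sham, -4.37 at day 1 and 0.50 at day 7, and sham lay closer to day 1 in 16. The sham array was thus nearer to day 1 in most of the extreme probes of either direction, but the 62 lower probes did not match sham at day 1. Their day 1 level was above sham by a median of 1.73. In 53 of the 62 (85.5%) it was 1 to 2.5 above sham, beside 7.16% of all measured probes. A high day 1 value is also favoured by the choice of these probes, and the cause of this shared offset was not tested.

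**Figure D5:**
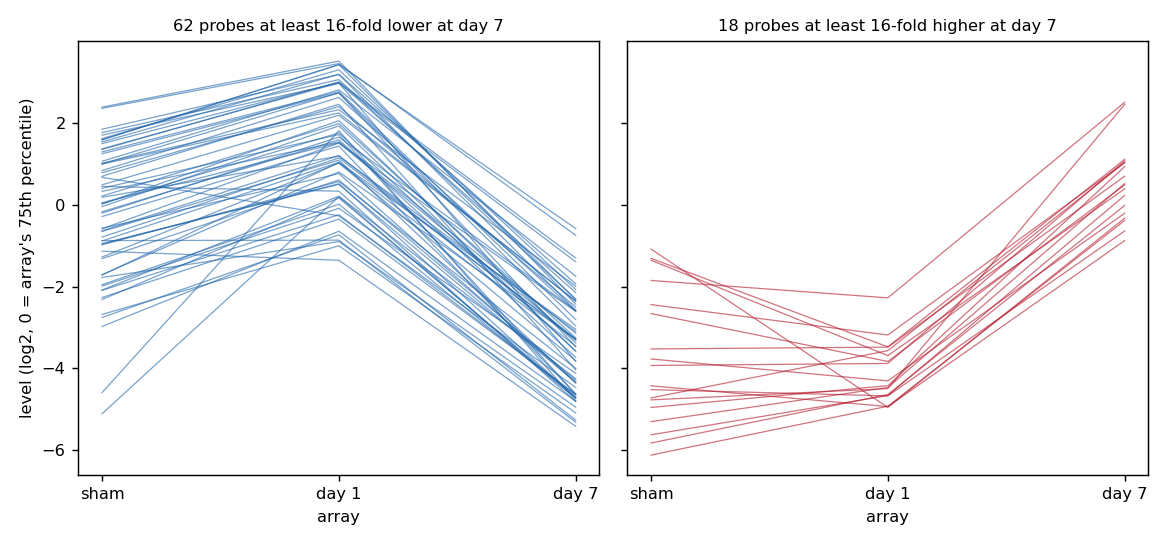
Levels on the sham, day 1 and day 7 arrays (log2, 0 is the array's 75th percentile) of the 62 probes at least 16-fold lower (left) and the 18 at least 16-fold higher (right) at day 7 than at day 1, 1 line per probe. On the left most lines go up from sham to day 1 before they drop to a day 7 median of -3.46, and on the right most stay low in sham and day 1 and reach a day 7 median of 0.50.

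Genes detected on 1 of the 2 arrays only had the largest bounds of at least 39.7-fold higher for Zfp219, a zinc finger gene, and 20.5-fold higher for Dennd11. Zfp219 was at -1.80 in sham, so it was low on the day 1 array alone. Lower at day 7, besides Hoxa2, were the kinase gene Srms (at least 38.6-fold), the mast cell tryptase Tpsb2 (34.9-fold), Spred2, an inhibitor of MAP kinase signalling (20.8-fold), and Zfp64 (18.9-fold). On probes with 10 spots, the kinases Ptk2b and Src, which bind each other in calcium signalling, differed by 2.21 and 2.08. The nuclear receptor Ppara differed by -2.02 on 10 spots.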

How the data were processed

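Total RNA of the vestibular nuclei, 1 µg per group per the labels, was labelled with Cy3 and hybridised to Agilent rat whole-genome arrays of 1 colour. Per the file headers, the scanner files were made with Agilent Feature Extraction 10.7.3.1, all on 1 slide, at position 3 for day 1 and 2 for day 7, so position and day cannot be told apart. The deposited files give a processed intensity per spot, linear and background-subtracted by that software, with flags that mark spots well above background, saturated spots and outliers. The authors' series table holds the same intensity, equal within 0.1% for 99.7% of values, so it is linear and not scaled or centred. The mapping of probes to a genome build is that of the array design, and no coordinates of probes are given.

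Control spots and outlier spots were left out (43379 spots of 41012 probes remained), log2 intensity was set against each array's 75th percentile, and spots of a probe were averaged. RefSeq accessions in a table of GRCr8 named 10768 probes of 8899 genes, and 30244 probes stayed unnamed. Of several probes of a gene, that with the highest mean level on the 3 arrays was used. At day 1 and day 7, 77.3% and 76.9% of spots were well above background, 804 and 842 were saturated, and the lowest signal well above background was 109.0 and 121.6 intensity units (66.9 in sham). Saturation left out 116 genes. A gene detected on 1 array only has a bound, "at least N-fold": the bright value is divided by the dim probe's value or, if higher, by the lowest signal well above background on that array.

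The genes and 48 gene lists were chosen with earlier results of these data known. Named are the 15 highest and 15 lowest genes whose probe is brighter than the median detected probe on 1 of the arrays, 5 bounds in each direction, genes whose probes agree past 2-fold, genes on 10 spots past 2-fold, 4 or more members of each list, and preset genes. The list members with the shown sequences and the few cell type markers beyond these were named after their values were seen. Lists share members. Python 3.11.15 (pandas 2.3.3, numpy 2.4.6) and, for alternatives, R 4.3.3 with limma 3.58.1 were used. The steps were tested on simulated data. Some genes that the naming rule or the lists include are not reported here, though they are counted.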

Additional observations from a re-analysis of the deposited data

How the results depend on the processing

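The 12 alternatives were quantile, cyclic loess and median scaling, another 75th percentile, no scaling, normexp, 2 filters on dim probes, 2 rules for the probe of a gene, and keeping saturated or outlier spots. The planned normexp on the mean signal was run on the median signal instead, chosen after seeing the data, since the files used here hold no mean signal. Without a filter on dim probes, 868 genes were higher and 703 lower of 8763, and with only brighter probes 32 were higher and 45 lower of 2729. Under the other alternatives the counts were within 1.5 times of 403 and 327, from 288 and 259 (normexp) to 519 higher and 268 lower (no scaling). Of 185 named genes past 2-fold, 139 stayed past it in every alternative that held them other than the brighter-probe filter, and normexp brought 35 within 2-fold. Hcn3 changed direction, to -0.16, with the mean over a gene's probes. Several list medians moved by over 1.5 times with the filters on dim probes, and not all such moves are given with their lists. Without a filter on dim probes, the metabotropic receptor median went from -0.45 to -0.06. That of monoamine and histamine receptors went from -0.29 to -0.02, and that of microglia markers from 0.24 to 0.42. With only brighter probes, the cytokine median went from 0.31 to 0.17 and that of GABA receptors and chloride transporters from 0.27 to 0.11. The median of the oligodendrocyte precursors turned from 0.24 to -0.02 with only brighter probes. No paired analysis was possible because each group has 1 array, and for the same reason no replicate could be left out. Depth limits the dim end: signals near 109.0 and 121.6 intensity units, the lowest well above background at day 1 and day 7, leave only bounds. The levels of Fcgr2b, Psmb9, Cacng8, Pmch, Cp and Kcnj4 at day 1, and of Dbh at day 7, were close to that floor.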

Other observations

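Of 27 measured genes of muscle sarcomeres and keratins, day 7 had 5 higher and 2 lower ones than day 1, at a median of 0.40. The shares over all genes were 6.56% and 5.32%. The highest member was Krt8, given above (4.89). The cardiac troponin Tnni3 was at -5.46 in sham, -1.56 at day 1 and 0.80 at day 7 (2.35), and the slow muscle troponin Tnnt1 at -3.56, -1.14 and 0.39 (1.53), so both were lowest in sham. Actc1, cardiac actin, was at -4.58, -1.91 and -3.99 (-2.08), highest at day 1, and Krt14, a keratin of stratified epithelia, differed by -1.54. The defining skeletal muscle genes Acta1 and Ckm differed by -0.33 and 0.65, and Myh4, a further one, was detected at day 1 and not at day 7. The 27 genes summed to a linear level of 10.6 in sham, 11.8 at day 1 and 15.0 at day 7. Of 288 measured olfactory receptor genes, 17 were higher and 16 lower (median 0.11), which is 5.90% and 5.56% beside 6.56% and 5.32% of all genes. Past 4-fold, 4 of the 288 were higher and 10 lower, beside 78 higher and 92 lower of all 6142 genes. Or52z1 was at 0.99, 2.74 and -3.47 (-6.21), Or2av9 at 1.59, 3.43 and -2.32 (-5.75) and Or13a18b at -4.56, -4.26 and -0.91 (3.35). Olfactory receptors are a large family of similar genes, which probes may not separate.

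Cell death genes gave 3 higher and 1 lower of 26, beside 6.56% and 5.32% of all genes, with a median of 0.20. The inflammatory caspase Casp1 was at -5.03 in sham, -4.77 at day 1 and -3.32 at day 7 (1.45), the death receptor Fas at -4.26, -4.78 and -3.56 (1.23, and 0.30 by another probe), and the inhibitor of apoptosis Birc3 at -4.57, -2.11 and -4.74 (-2.63). Bmf, a factor of the Bcl2 family that promotes death, differed by 1.26. Of 16 cell division genes 1 was higher, the mitotic kinase Aurka, at -3.92, -4.17 and -2.49 (1.68), and 13 lay above 0, with a median of 0.13. Cyclin B1, Ccnb1, differed by 0.92 and Tyms, which makes thymidylate, by -0.74.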
